A study of Mus musculus with 8 samples.

Results

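The RNA of the receptors and ligands of the insulin-like growth factor (IGF) system was followed in the islets of 8 mice aged 17 months. The members were chosen by symbol, as *Igf1r*, *Insr*, *Insrr*, *Igf2r*, *Igf1* and *Igf2*, which are 6 of the 53012 genes in the deposited table, and all 6 passed the filter on low counts. The 4 βIgf1r mice (label CTRL; M148, M151, M152 and M153) were Ins1-CreERT2-/- Igf1r flox/flox and received the corn oil vehicle. The 4 βIgf1rKD mice (label KD; M145, M146, M149 and M150) were Ins1-CreERT2+/- Igf1r flox/flox and received intraperitoneal tamoxifen at 0.075 mg per g every 24 h, 5 times. The islets were taken 7 days after dosing ended, both groups held males and females, and each library came from the islets of a single mouse. All 8 mice carried the floxed exon 3 of *Igf1r*. Only the βIgf1rKD mice carried the recombinase and received tamoxifen, so the effects of the allele, the recombinase and the drug cannot be told apart. The genotypes name *Ins1* as the driver of the recombinase, whereas the methods of the study describe a rat insulin promoter.

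IGF1R and INSR are receptor tyrosine kinases that bind IGF1, IGF2 and insulin with different affinities and signal through insulin receptor substrates. INSRR, the insulin receptor-related receptor, shares their structure, binds no known insulin-like hormone and responds to alkaline pH. IGF2R, the cation-independent mannose 6-phosphate receptor, has no kinase and carries IGF2 and lysosomal enzymes to the lysosome. In the islet, insulin and IGF receptors on β-cells are known to act on β-cell growth, survival and secretion.

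*Igf1r* lies on chromosome 7 of GRCm38 (67952827 to 68233668, plus strand), and its protein-coding transcript has 21 exons and 11409 bases in the GENCODE M21 annotation. The floxed exon 3, a coding exon at chr7:68164993-68165305, has 313 bases, which make up 2.74% of the transcript and 7.62% of the coding sequence. Its first 300 bases are printed because this is the segment that Cre removes, with the 15 in-frame cysteine codons of the exon in capitals.

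Igf1r exon 3: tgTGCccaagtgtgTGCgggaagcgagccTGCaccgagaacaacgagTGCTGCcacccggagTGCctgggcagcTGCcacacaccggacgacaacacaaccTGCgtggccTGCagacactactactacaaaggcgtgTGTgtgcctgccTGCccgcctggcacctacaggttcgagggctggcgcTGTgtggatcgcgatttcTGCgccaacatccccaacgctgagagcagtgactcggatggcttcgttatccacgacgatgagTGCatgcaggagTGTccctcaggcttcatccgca

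The length of exon 3 leaves a remainder of 1 after division by 3. When exon 2 was joined to exon 4 in the annotated transcript, the reading frame met a stop in exon 4 after 240 codons, against 1369 codons in the full transcript. The other exons were left as they are, so reads from them count toward *Igf1r* with or without exon 3. A gene-level count therefore measures *Igf1r* RNA as a whole and cannot show how much of it lacked the exon.

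The 3 related receptors are distinct in sequence, which matters for how reads were assigned. The translated reading frames of *Igf1r* and *Insr* were 59.1% identical, those of *Igf1r* and *Insrr* 57.1%, and those of *Insr* and *Insrr* 54.9%. At the nucleotide level, *Igf1r* and *Insr* shared 2 of the 16771 words of 31 bases in *Igf1r*, and *Insrr* shared none with either. A conserved segment, the kinase activation loop, is shown over 27 bases for *Igf1r* and *Insr*, with capitals where the base differs from *Igf1r*. *Insr* differed at 3 bases.

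Igf1r: atctacgagacggactactaccggaaa

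Insr: atctacgagacAgaTtactaTcggaaa

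The libraries of βIgf1r mice held 21634080 to 31202154 estimated counts, and those of βIgf1rKD mice 23826023 to 42391328. Values are CPM, the count of a gene scaled to a common library size with TMM factors, and fold changes are βIgf1rKD over βIgf1r from the quasi-likelihood test of edgeR on the 15474 genes that passed the filter. Markers of β-cells were high in all 8 libraries, with a summed level of 127748 to 203501 CPM. RNA of pancreatic acinar cells was present in all of them too: the sum of 12 acinar markers lay between 15391 and 151083 CPM in βIgf1r mice, and between 34170 and 188887 CPM with the knockdown genotype. In M145 and M149 it exceeded that of the β-cell markers. In bulk islets, fewer cells of a type and less RNA per cell cannot be told apart.

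None of the 6 members passed the test between the groups. At an unadjusted p under 0.05, 0 of 6 members were called, beside 4.12% of all genes tested. At an adjusted p under 0.05, 0 of 6 were called, beside 0% of all genes. That count of 0 over all genes stands beside 637 genes at an unadjusted p under 0.05 in edgeR, and beside 8 genes called by DESeq2 and 1 called by limma-voom after adjustment. The groups overlapped for all 6 members, whereas 2.22% of all genes did not overlap. The adjusted p of every member in edgeR was at least 0.986.

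*Igf1r*, the floxed gene, was at 46.8, 48.0, 60.9 and 58.7 CPM in βIgf1r mice M148, M151, M152 and M153. It was at 46.9, 50.2, 57.9 and 47.8 CPM in βIgf1rKD mice M145, M146, M149 and M150. Only M152 and M153 stood above all βIgf1rKD mice, and M148 and M151 lay at the lower end of that group. The means were 53.6 ± 7.21 and 50.7 ± 4.996 CPM (SD, n = 4 each). The log2 fold change was -0.08 (SE 0.11), with a 95% interval of -0.33 to 0.17, equal to 0.798 to 1.12 fold. The unadjusted p was 0.483 and the adjusted p 0.988 in edgeR, and the two-sided exact permutation test over the 70 assignments of the mice, whose smallest p is 0.0286, gave p = 0.543. Leaving out single mice moved the log2 fold change between -0.15 without M149 and -0.01 without M152. By qPCR, over a wider age range, the study reported lower islet *Igf1r* mRNA in βIgf1rKD mice. It also reported lower IGF1R protein by Western blot in islets of younger mice. These are other assays than the counts used here, and what sets their results apart was not tested.

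*Insr*, the insulin receptor (chromosome 8, 3122061 to 3279617, minus strand), was at 40.3, 49.3, 43.1 and 44.8 CPM in βIgf1r mice. It was at 49.2, 40.3, 46.3 and 45.1 CPM in βIgf1rKD mice, in the mouse order given for *Igf1r*. The lowest and highest values of the groups nearly coincided. Its log2 fold change was 0.03 (SE 0.09), with a 95% interval of -0.17 to 0.22, which was the narrowest of the 6. The adjusted p in edgeR was 0.992, and the two-sided exact permutation test gave p = 0.714.

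*Insrr* (chromosome 3, 87796951 to 87816101, plus strand) was at 293.7, 224.9, 285.2 and 231.1 CPM in βIgf1r mice and at 234.3, 311.6, 263.1 and 230.5 CPM in βIgf1rKD mice. The highest mouse, M146, and the lowest, M151, came from different groups. The means, 258.7 ± 35.7 and 259.9 ± 37.4 CPM (SD, n = 4 each), lay far closer together than the mice within a group. The difference on the log2 scale was 0.01 (SE 0.14), with a 95% interval of -0.30 to 0.31, and the exact permutation test gave p = 0.971.

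*Igf2r* (chromosome 17, 12682406 to 12769664, minus strand, 48 exons) was at 55.3, 90.5, 86.7 and 81.9 CPM in βIgf1r mice. It was at 66.2, 77.5, 69.3 and 82.0 CPM in βIgf1rKD mice. M148 was the lowest of the 8 mice, M151 and M152 lay above all βIgf1rKD mice, and M153 was level with the highest of them. The fitted log2 fold change was -0.09 (SE 0.15), with a 95% interval of -0.42 to 0.24 (adjusted p = 0.988, edgeR), and the exact permutation test gave p = 0.771. Without M148 it was -0.23, with an unadjusted p of 0.0449 and an adjusted p of 0.9998 in edgeR. Without M151 it was -0.015, without M152 -0.039, without M145 -0.042 and without M150 -0.15, with unadjusted p of 0.927, 0.815, 0.804 and 0.399.

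*Igf1* (chromosome 10, 87858265 to 87937042, plus strand), the growth factor that the liver secretes under growth hormone, varied most. It was at 2.26, 2.80, 7.33 and 5.36 CPM in βIgf1r mice and at 10.4, 1.36, 15.2 and 7.94 CPM in βIgf1rKD mice. Of the βIgf1rKD mice, 3 stood above all βIgf1r mice and M146 stood below all of them, with 11.2-fold between the highest and lowest mouse of that group. The means were 4.44 ± 2.35 and 8.72 ± 5.76 CPM (SD, n = 4 each), from 38 to 349 counts per mouse. The log2 fold change was 0.98 (SE 0.61), with a 95% interval of -0.39 to 2.34, equal to 0.765 to 5.06 fold (adjusted p = 0.987, edgeR). The two-sided exact permutation test gave p = 0.429. Without M146 the log2 fold change was 1.34, with an unadjusted p of 0.00884 and an adjusted p of 0.807 in edgeR, and without M149 it was 0.57, with an unadjusted p of 0.384.

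*Igf2* (chromosome 7, 142650766 to 142666816, minus strand), an imprinted fetal growth factor and a ligand of both IGF1R and IGF2R, was at 10.2, 13.8, 8.01 and 9.48 CPM in βIgf1r mice. It was at 11.9, 10.2, 11.8 and 14.7 CPM in βIgf1rKD mice. M152 and M153 of the βIgf1r mice were the lowest of the 8, and M151 was second only to M150. In edgeR its log2 fold change was 0.23 (SE 0.18), with a 95% interval of -0.16 to 0.63 (adjusted p = 0.987), and the exact permutation test gave p = 0.257. Without M151 it was 0.40, with an unadjusted p of 0.0260 and an adjusted p of 0.98 in edgeR, whereas it was 0.13 without M150 (unadjusted p of 0.509) and 0.13 without M152 (unadjusted p of 0.474).

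**Figure D1:**
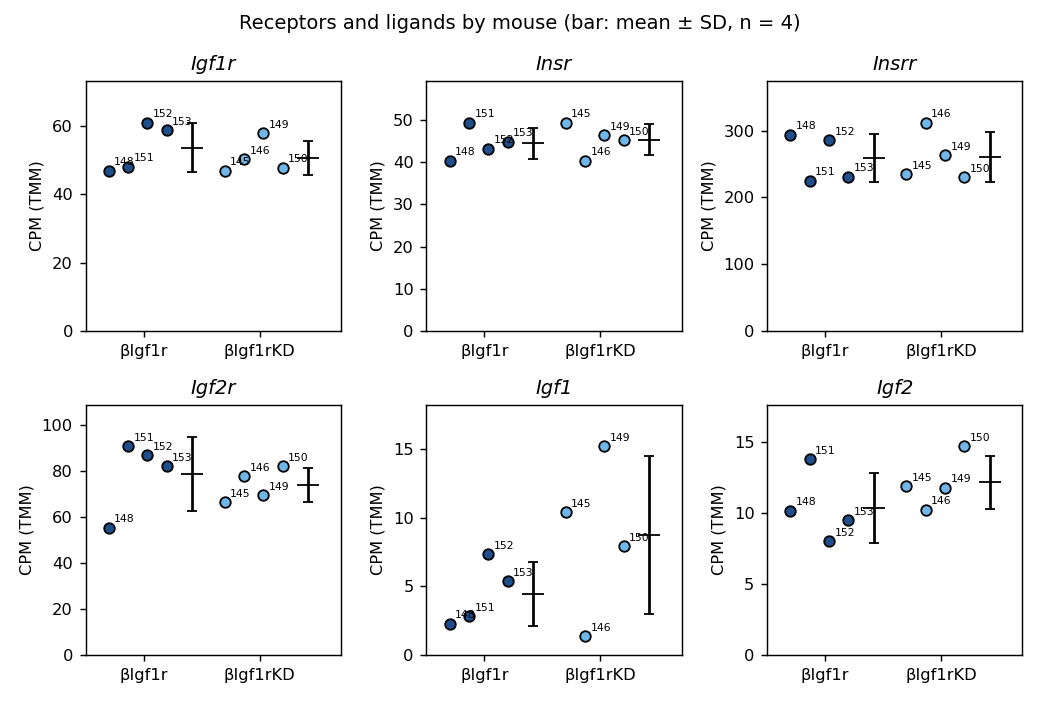
CPM of each member (vertical axes from 0, a separate scale for each gene) in the 4 βIgf1r and 4 βIgf1rKD mice, with the mouse number beside each point and the mean ± SD as a bar. The groups overlap in all 6 panels, and *Igf1* ranges from 1.36 to 15.2 CPM.

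**Figure D2:**
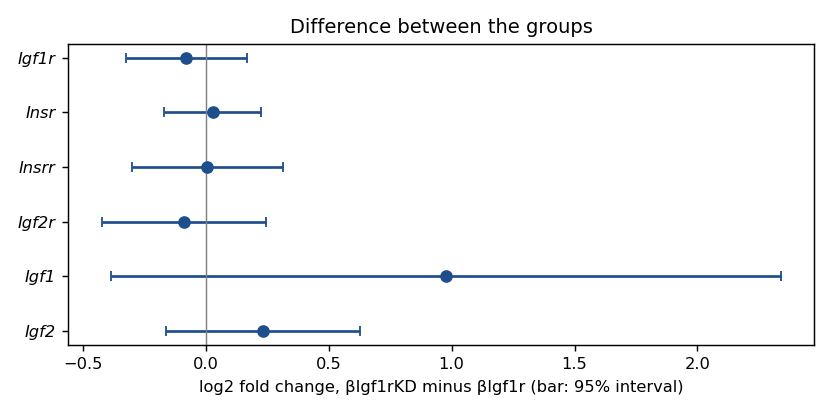
The log2 fold change of each member in βIgf1rKD over βIgf1r mice (horizontal axis), with its 95% interval from edgeR as a bar. Every interval includes 0, from the narrowest for *Insr* (-0.17 to 0.22) to the widest for *Igf1* (-0.39 to 2.34).

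The spread between mice differed among the members. Against genes of like mean level, the SD of log2 CPM over the 8 mice was larger for *Igf1* than for 98.1% of 1689 genes. It was larger for *Igf2r* than for 87.4% of 1506 genes and for *Igf2* than for 84.3% of 2320 genes. *Insrr* and *Igf1r* stood nearer the middle, at 64.6% and 62.3%, and *Insr* at 30.9% was the steadiest.

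To compare levels between genes, CPM was divided by the length of the longest protein-coding transcript. *Insrr* was the highest of the 6, at 50.8 ± 6.64 CPM per kilobase (SD, n = 8), and was 5.95-fold above *Igf2r*, at 8.57 ± 1.32. *Insr* followed at 4.79 ± 0.372 and *Igf1r* at 4.57 ± 0.521 CPM per kilobase. The ligands were lowest, *Igf2* at 2.38 ± 0.472 and *Igf1* at 0.933 ± 0.662 CPM per kilobase. *Insr* and *Igf1r* did not differ beyond their spread: *Insr* was higher in 4 of 8 mice, and the two-sided exact sign-flip permutation test gave p = 0.352. Each other neighbour pair kept its order in 8 of 8 mice, with p = 0.0078 by the same exact test, the smallest it can give, and an adjusted p of 0.00977 over the 5 pairs. The pairs were set by the mean order in these same mice. The p therefore describes how steady the order was between mice at this length.

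This order depended on the length used below *Insrr*. The union of exons gave the same order. With the median length of the protein-coding transcripts, *Insr* and *Igf2r* were at 8.94 and 8.57 CPM per kilobase, and *Igf1*, *Igf1r* and *Igf2* at 4.81, 4.57 and 4.50. *Igf1* has 8 annotated protein-coding transcripts of different length, and the gene-level counts do not show which were present.

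**Figure D3:**
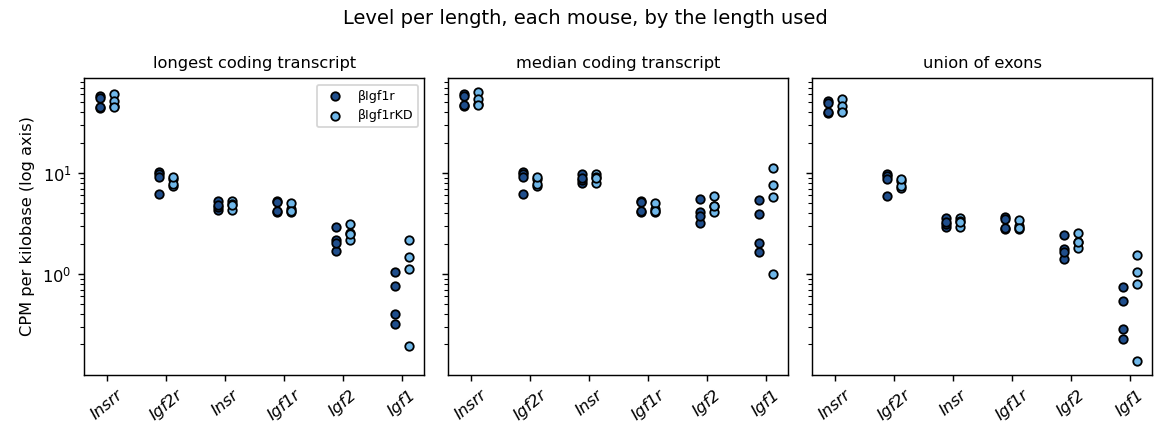
CPM per kilobase of each member in each mouse (log axis), dark for βIgf1r and light for βIgf1rKD, for 3 choices of length. *Insrr* stands above the other members in every panel, while *Igf1* moves from the lowest place to among the middle members with the median transcript length.

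Ratios of members within a mouse were compared next, since they do not depend on the scaling between libraries. *Igf1r* over *Insr* ranged from 0.953 in M145 to 1.41 in M152, and its geometric mean was 1.203 in βIgf1r and 1.12 in βIgf1rKD mice. On the log2 scale the difference was -0.10, with p = 0.543 in the two-sided exact permutation test. *Igf1r* over *Igf2r* differed by -0.00 (exact permutation p = 0.943). *Igf1* over *Igf2* was the most variable ratio, from 0.134 in M146 to 1.29 in M149, both βIgf1rKD mice (log2 difference 0.45, exact permutation p = 0.714).

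*Pdx1*, a transcription factor of β-cells to which the study scaled IGF1R protein, was taken as a further reference. How far its RNA follows the β-cell RNA of a library was not tested. *Igf1r* over *Pdx1* had a geometric mean of 0.462 in βIgf1r and 0.423 in βIgf1rKD mice, and ranged from 0.314 in M146 to 0.609 in M153. The log2 difference was -0.13 (exact permutation p = 0.629). *Insr* over *Pdx1* differed by -0.02 (exact permutation p = 0.971). The adjusted p over the 5 ratios was 0.971 for each.

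*Igf1* RNA followed the acinar marker RNA across the mice. The summed acinar markers were at 15391, 25858, 151083 and 82110 CPM in M148, M151, M152 and M153, and at 168431, 34170, 188887 and 110640 CPM in M145, M146, M149 and M150. Within each group, the order of the mice by *Igf1* was the same as their order by acinar RNA. Over the 8 mice, Pearson's r on the log2 scale was 0.90 (exact permutation p = 0.00379, adjusted p = 0.182) and Spearman's rho 0.90 (exact permutation p = 0.00456, adjusted p = 0.219). The adjustment covered 48 pairs of a member and a marker list. Without M148 and M151, the 2 mice farthest from the median acinar sum on the log2 scale, r was 0.97.

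All 12 acinar markers had positive log2 fold changes, none at an unadjusted p under 0.05, and their summed level gave p = 0.229 (exact permutation). With the acinar score as a covariate in edgeR, the log2 fold change of *Igf1* between the groups went from 0.98 to -0.12 (SE 0.38). The part of acinar RNA in the spread of *Igf1* was not tested.

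**Figure D4:**
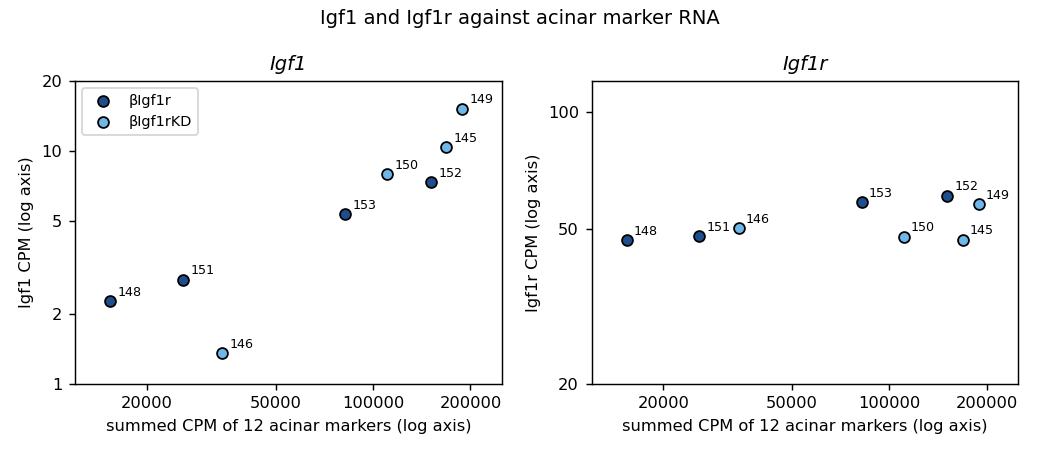
CPM of *Igf1* (left) and *Igf1r* (right) against the summed CPM of 12 acinar markers in each mouse (log axes), with mouse numbers, dark for βIgf1r and light for βIgf1rKD. *Igf1* is highest in M149 and M145, the mice with most acinar RNA. *Igf1r* lies between 46.8 and 60.9 CPM, and the vertical scales of the panels differ. The order by *Igf1r* also followed acinar RNA in βIgf1r mice, but not in βIgf1rKD mice (r = 0.51 over the 8 mice, exact permutation p = 0.206).

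Members also moved with markers of islet endocrine cells, before adjustment only, as was the case for *Igf1* with the acinar markers. These marker sums were mostly hormone RNA, so they follow the hormone genes more than the other markers. Median levels were 111991 CPM for *Ins2*, 29815 for *Ins1* and 14855.5 for *Iapp*, beside 120 for *Pdx1*. For α-cells *Gcg* was at 16247.5 CPM, and for delta and PP cells *Sst* and *Ppy* were at 2332 and 2077 CPM. *Insrr* went against the summed α-cell markers (r = -0.78, exact permutation p = 0.0252, and rho = -0.76, exact permutation p = 0.0368). *Insr* went against the β-cell markers (r = -0.76, exact permutation p = 0.0394, and rho = -0.69, exact permutation p = 0.0694). *Igf2r* went with the markers of delta and PP cells (r = 0.77, exact permutation p = 0.0265, and rho = 0.83, exact permutation p = 0.0154). Without the 2 mice farthest from the median marker sum on the log2 scale, r was -0.69, -0.88 and 0.86 for these pairs. *Igf2* had r = 0.73 with the α-cell markers (exact permutation p = 0.0429, rho = 0.64 with p = 0.0962) and r = -0.72 with the β-cell markers (exact permutation p = 0.0469, rho = -0.64 with p = 0.0962), and without the 2 farthest mice these were 0.22 and -0.79. The first of these rests on the 2 mice left out, M151 and M150. *Igf1* had rho = -0.79 (exact permutation p = 0.0279) and r = -0.57 (exact permutation p = 0.139) with the β-cell markers, and r = -0.64 without the 2 farthest mice. None passed the adjustment over 48 pairs, where the adjusted p was at least 0.369.

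Endothelial markers were lower in βIgf1rKD mice, at 407 to 450 CPM in sum against 459 to 572 CPM, with 11 of 11 log2 fold changes below 0 (exact permutation p = 0.0286 for the sum). That is the smallest p this test can give. The sum was 1 of 8 marker lists compared, and its p was not adjusted over them. With the endothelial score as a covariate, the log2 fold change of *Igf2r* was -0.58 (unadjusted p of 0.0441, adjusted p = 0.999, edgeR). Its SE was 0.25, against 0.15 without the covariate. Because the endothelial sums did not overlap between the groups, this fit separates group from covariate poorly. The part of endothelial RNA in the members' values was not tested.

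Among the members themselves, *Insr* and *Insrr* moved in opposite directions over the 8 mice. Pearson's r was -0.85 (exact permutation p = 0.00947) and Spearman's rho -0.79 (exact permutation p = 0.0279), with adjusted p of 0.142 and 0.419 over the 15 pairs of members. Without the 2 mice farthest from the median log2 CPM of *Insr*, r was -0.61. No other pair of members had an unadjusted p under 0.05 for r or rho.

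The genes most like each member were taken as those with the highest r over the 8 mice. For *Igf1r* they were *Dusp6*, a phosphatase of the MAP kinase ERK (r = 0.96, rho = 0.86), and *Inca1* (r = 0.95, rho = 0.81). *Dusp6* was at 9.45, 9.24, 12.1 and 11.7 CPM in βIgf1r and 8.28, 10.03, 11.5 and 9.13 CPM in βIgf1rKD mice, so M152, M153 and M149 were the 3 highest for both genes. For *Insr* they were *Zfp599* (r = 0.99) and *Atp13a3* (r = 0.98), and for *Insrr* *Whamm* and *Dmwd* (r = 0.98 each). For *Igf2r* they were *Herc1* and *Bod1l* (r = 0.97 each), for *Igf1* *Cd302* (r = 0.996) and *Klk1b3* (r = 0.99), and for *Igf2* *Plcg2* and *Spin1* (r = 0.95 each). These were picked as the highest of 15474 genes and carry no test.

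Genes that act with the receptors and ligands were described from 8 lists holding 107 genes, of which 84 passed the filter. Of these, 7 had an unadjusted p under 0.05 (4 higher and 3 lower in βIgf1rKD mice), which is 8.33% beside 4.12% of all genes, and 0 passed adjustment. The lists were chosen with earlier results of these data known, so the 2 shares are a description and carry no test. The count of each list below stands beside the same 4.12%. The median log2 fold change over the lists was 0.03, beside 0.01 over all genes tested. The adjusted p of each gene named from these lists was at least 0.986 in edgeR.

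Among 10 tested IGF binding proteins and their proteases, 2 were lower at an unadjusted p under 0.05 and none higher (median log2 fold change -0.08). *Igfbp7*, a secreted protein of the binding protein superfamily, was at 132.2 to 134.4 CPM in βIgf1r mice and at 102.8 to 117.6 CPM in βIgf1rKD mice, with no overlap (log2 fold change -0.24, SE 0.07). It is also abundant in endothelium, whose markers were lower in the same mice, and the part of endothelial RNA in this value was not tested. *Pappa2*, a protease that cleaves IGF binding proteins, was at 307.9, 346.4, 364.4 and 255.7 CPM in βIgf1r mice and at 221.0, 171.0, 228.6 and 288.7 CPM in βIgf1rKD mice (log2 fold change -0.49, SE 0.17), and its groups overlapped. *Igfals*, whose product holds IGFs in the circulating complex, was at 49.6 ± 0.257 CPM in βIgf1r and 59.1 ± 11.6 CPM in βIgf1rKD mice (SD, n = 4 each), with a log2 fold change of 0.25 (SE 0.13) that did not pass the unadjusted threshold. 

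Of the insulin family, 2 of 11 listed ligands and receptors passed the filter, the insulin genes. *Ins1*, 1 of the 3 lower genes at an unadjusted p under 0.05, had a log2 fold change of -0.92 (SE 0.33) and did not overlap between the groups, whereas *Ins2* had -0.08 (SE 0.41). The Ins1-CreERT2 allele was present in the βIgf1rKD mice alone, so its part in the *Ins1* value cannot be told apart from that of the other differences between the groups.

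Downstream of the receptors, none of the 21 tested substrates and adaptors reached an unadjusted p under 0.05, with a median log2 fold change of 0.03 and a range of -0.15 to 0.17. *Rack1*, a scaffold, and *Shc1*, an adaptor of the Ras pathway, had the highest CPM of this list and log2 fold changes of 0.17 and 0.07. None of the 14 maturation and turnover genes or the 12 mannose 6-phosphate sorting genes did either (medians 0.03 and 0.08). These include *Hsp90b1*, an endoplasmic reticulum chaperone (log2 fold change -0.08), *Nedd4*, a ubiquitin ligase (-0.04), and the lysosomal proteases *Ctsd* and *Ctsb* (0.11 and 0.20). The 6 tested genes at the members' loci had none at that threshold either (median -0.13), and *Th*, tyrosine hydroxylase next to the insulin gene *Ins2*, had a log2 fold change of -0.18 (SE 0.16).

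Among the 13 receptor phosphatases and inhibitors, 2 were higher at an unadjusted p under 0.05 and none lower (median 0.07). *Socs2* and *Socs3*, feedback inhibitors of cytokine receptors, had log2 fold changes of 0.85 (SE 0.32) and 0.65 (SE 0.28). *Ptprf*, a receptor-type tyrosine phosphatase and the highest of the list, had 0.05 (SE 0.12). *Elapor1*, which encodes the inceptor protein that restrains insulin and IGF1 receptors in β-cells, had -0.09 (SE 0.09), at 243.1 ± 13.2 and 228.6 ± 18.9 CPM (SD, n = 4 each).

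In the list named growth hormone axis upstream of *Igf1*, 3 of 8 genes were higher at an unadjusted p under 0.05 and none lower (median 0.29), beside 4.12% of all genes. *Socs2*, 1 of the 3, was already counted among the phosphatases and inhibitors, and the list also holds the prolactin receptor. *Cish*, a target and inhibitor of the growth hormone and prolactin pathway, was at 15.9, 9.60, 4.84 and 5.02 CPM in βIgf1r and at 23.3, 35.2, 8.05 and 18.1 CPM in βIgf1rKD mice (log2 fold change 1.25, SE 0.48). M149 lay within the βIgf1r range, and the other 3 βIgf1rKD mice above it. *Socs2* had the same mouse, M149, as its lowest of the group. *Esr1*, the estrogen receptor α gene, was the third, at 0.874 ± 0.270 and 1.58 ± 0.756 CPM (SD, n = 4 each, log2 fold change 0.86, SE 0.37). *Ghr*, the growth hormone receptor, had a log2 fold change of -0.04 (SE 0.11) and *Prlr*, the prolactin receptor, 0.51 (SE 0.29). *Prlr* was at 181.3, 247.4, 144.4 and 222.1 CPM in βIgf1r mice. In βIgf1rKD mice it was at 292.8, 405.1, 139.3 and 298.4 CPM, with M146 the highest and M149 the lowest. M149, the mouse with the most *Igf1*, had the least *Cish* and *Socs2* of the βIgf1rKD mice, and M146, with the least *Igf1*, had the most of both. M145 and M150 went the other way. M145 had more *Igf1* than M150 (10.4 against 7.94 CPM), and also more *Cish* (23.3 against 18.1) and *Socs2* (32.1 against 24.7).

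**Figure D5:**
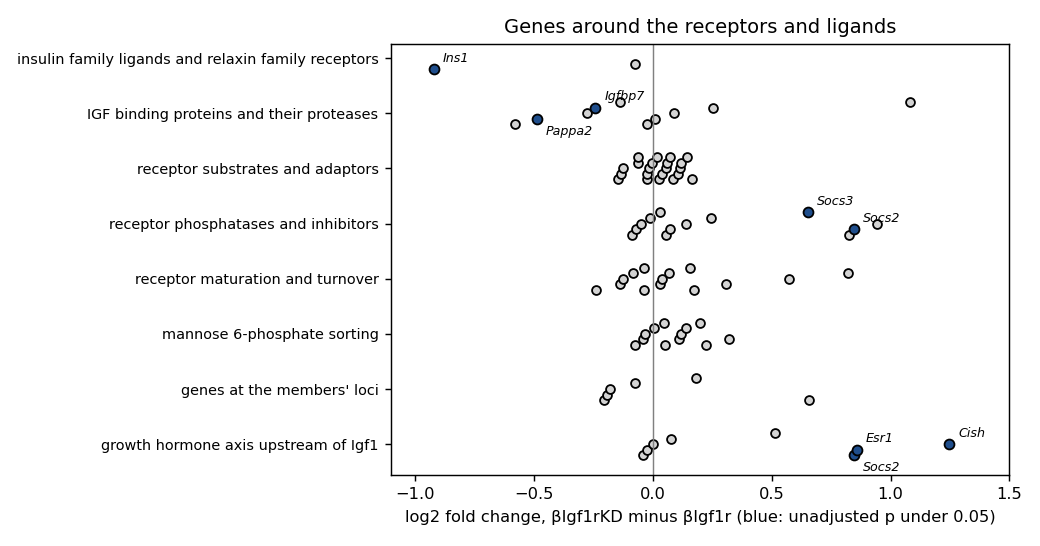
The log2 fold change in βIgf1rKD over βIgf1r mice (horizontal axis) of each tested gene in the 8 lists around the receptors and ligands, with genes at an unadjusted p under 0.05 in blue and named. Vertical offsets within a list only separate the points, *Socs2* is in 2 lists, and the substrates and adaptors stay between -0.15 and 0.17.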

How the data were processed

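Islet RNA of 8 mice was sequenced from a TruSeq Stranded mRNA kit, 1 library per mouse. Per the labels, reads were processed with fastp and kallisto against GRCm38. Versions, the annotation release and the step from transcripts to genes are not given in the sources used here. The authors deposited estimated counts per Ensembl gene, of which 13.4% were not whole and were rounded here. Symbols matched 51906 of 53012 genes. Genes passed filterByExpr (minimum count 10, total 15) and were TMM-scaled. βIgf1rKD was tested against βIgf1r with the edgeR 4.0.16 quasi-likelihood test in R 4.3.3 with Benjamini-Hochberg adjustment, and this was tested on simulated data. limma 3.58.1 (voom), DESeq2 1.42.0, other filters and scaling, covariates and leaving out each mouse were alternatives. Log2 CPM used a prior count of 2, and ratios added 0.5 counts. Single values were tested with exact permutation tests in Python 3.11.15. The replicates are separate mice, and neither sex nor batch is given per mouse.

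The members and lists were chosen with earlier results of these data known. Genes of a list were named if their unadjusted p was under 0.05 or their CPM was among the 2 highest of the list, and *Igfals* was chosen after its values were seen. Sequences came from GENCODE M21 transcripts, and amino acids are not printed here.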

Additional observations from a re-analysis of the deposited data

How the results depend on the processing

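No member passed an adjusted p under 0.05 under any alternative. Log2 fold changes changed sign for *Igf1r* with *Xist* as a covariate (0.023), for *Insr* with the acinar (-0.021), endothelial (-0.23) or macrophage and leukocyte score (-0.015, chosen after seeing the data), for *Insrr* with the fibroblast and pericyte score (-0.024), for *Igf1* with the acinar score (-0.12) and for *Igf2* with the endothelial score (-0.069). With *Xist* as a covariate, that of *Igf1* was 1.36 (unadjusted p = 0.0484, edgeR). Other covariates moved values by over 1.5 times without a change of sign: *Igf1r*, -0.08 without a covariate, was -0.18 with the acinar, -0.14 with the macrophage and leukocyte and -0.023 with the endothelial score, *Igf2r* was -0.14 with *Xist*, -0.14 with the acinar and -0.58 with the endothelial score, *Igf1* was 0.45 with the macrophage and leukocyte score, and *Igf2* was 0.13 with *Xist* and 0.15 with the macrophage and leukocyte score. *Insr* and *Insrr*, near 0 without a covariate, ranged from -0.23 to 0.044 and from -0.024 to 0.34 over the 5 covariates. The endothelial sums did not overlap between the groups, so the values with that score separate group from covariate poorly. The causes were not tested.

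Leaving out each mouse in turn gave log2 fold changes of -0.15 to -0.01 for *Igf1r*, -0.016 to 0.082 for *Insr*, -0.093 to 0.073 for *Insrr*, -0.23 to -0.01 for *Igf2r*, 0.57 to 1.34 for *Igf1* and 0.13 to 0.40 for *Igf2*. It gave log2 ratio differences of -0.20 to -0.03 for *Igf1r* over *Insr*, -0.13 to 0.094 for *Igf1r* over *Igf2r*, 0.02 to 1.11 for *Igf1* over *Igf2*, -0.27 to 0.017 for *Igf1r* over *Pdx1* and -0.24 to 0.17 for *Insr* over *Pdx1*.

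Over all genes, the count at an unadjusted p under 0.05, 637 of 15474, became 1143 with *Xist* and 387 with the acinar score. It was 377 to 1094 without each mouse (377 without M148, 396 without M153 and 1094 without M152). With no filter it was 1098, but of 27738 genes, so that count covers a larger set and is not a like comparison. The count after adjustment, 0, became 8 with DESeq2 and 1 with limma-voom, and stayed at 0 to 0 without each mouse. No paired analysis was possible because the labels give nothing that pairs a mouse of one group with a mouse of the other. With 4 mice a group, the 95% interval of *Igf1r* spans 0.798 to 1.12 fold, and that of *Igf1* 0.765 to 5.06 fold.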

Other observations

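Transcripts that overlap the members were low. The read-through gene *Gm49394*, which shares 3566 words of 31 bases with *Igf2* (61.9% of the words of *Igf2*), had 0 to 22 counts per mouse. The antisense genes *Igf2os*, *Igf1os* and *Gm16180*, which overlap *Igf2*, *Igf1* and *Insr*, had 3 to 15, 0 to 5 and 0 counts. *Airn*, the antisense RNA of *Igf2r* known from imprinting, had 42 to 113 counts per mouse. *Pear1*, which overlaps *Insrr* on the other strand, had 68 to 169 counts.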
